A study of Mus musculus with 12 samples.

Results

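The alpha-2-macroglobulin family in the mouse was followed here through 4 genes, A2m, Pzp, Mug1 and Mug2, of the 25611 genes in the liver count table. The genes were chosen by symbol, with values of these libraries known: A2m because it had the largest rise in septic liver, and Pzp, Mug1 and Mug2 because they are its relatives with steady expression in liver. The difference between septic and sham mice is therefore a description for these 4 genes and carries no test.

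RNA-seq was performed on whole livers of male C57BL/6J mice, 8 to 10 weeks old, with 4 mice per group. Sham mice had surgery without injury to the gut. CLP mice underwent cecal ligation and puncture, which leaks gut contents into the abdomen and gives polymicrobial sepsis. CLP+DCA mice had the same injury and received dichloroacetate (DCA), an inhibitor of the pyruvate dehydrogenase kinases, at 25 mg/kg 24 hr after surgery. All livers were taken 30 hr after surgery, which is 6 hr after DCA. The labels name no genetic change in any group. Every mouse also received saline under the skin, and what the sham and CLP mice received in place of the DCA injection is not given in the sources used here. Whole liver is a mixture of cells, so fewer cells of a type and less RNA per cell cannot be told apart.

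Alpha-2-macroglobulins are large secreted proteins made mainly by hepatocytes. A protease that cuts the bait region of a macroglobulin springs an internal thioester bond, the protein folds around the protease, and the complex is removed from blood through the receptor LRP1. They also bind cytokines and growth factors. The family is an example of species difference in the acute phase response, because the alpha-2-macroglobulin of the rat is strongly induced in inflammation while that of human plasma is not. In the mouse, PZP is the abundant tetrameric plasma inhibitor, and MUG1 and MUG2 are murinoglobulins, which work as single chains. The names are easily crossed: the RefSeq gene table lists A2m among the older names of Pzp, so the 4 genes were matched here by current symbol.

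All 4 genes lie on chromosome 6 of mm10. A2m spans 121636173 to 121679238, Mug1 spans 121838541 to 121889057 and Mug2 spans 122006798 to 122085967, all on the plus strand. Pzp spans 128483567 to 128526720 on the minus strand. The main transcripts of A2m, Pzp and Mug1 have 36 exons each and that of Mug2 has 35. Their lengths are alike, at 4605 bases for A2m, 4681 for Pzp, 4657 for Mug1 and 4579 for Mug2.

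The 75 coding bases around the thioester are shown because they are the site that defines the family and because they show how near the genes are to each other. The capitals mark the 5 codons of the thioester motif, and each stretch lies in exon 24 of its transcript. The stretches are at chr6:121668072-121668146 on the plus strand for A2m, chr6:128491572-128491646 on the minus strand for Pzp, chr6:121878937-121879011 on the plus strand for Mug1 and chr6:122075171-122075245 on the plus strand for Mug2.
A2m: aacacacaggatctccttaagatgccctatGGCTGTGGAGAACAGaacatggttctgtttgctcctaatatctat
Pzp: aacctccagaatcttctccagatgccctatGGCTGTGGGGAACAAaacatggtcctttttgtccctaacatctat
Mug1: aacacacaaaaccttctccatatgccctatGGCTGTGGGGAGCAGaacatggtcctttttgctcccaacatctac
Mug2: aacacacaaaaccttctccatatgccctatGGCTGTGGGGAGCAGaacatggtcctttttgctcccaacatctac
Mug1 and Mug2 had the same bases throughout this stretch. A2m differed from Pzp at 14 bases and from Mug1 at 14, and Pzp differed from Mug1 at 12. Over whole transcripts, Mug1 and Mug2 were 95.2% identical, while A2m was 67.7% identical to Pzp and 71.2% identical to Mug1.

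The likeness of the sequences bears on how far the counts of each gene can be trusted. No stretch of 100 bases, the length of a read, was shared between A2m or Pzp and any relative. For Mug1, 5.75% of such stretches occurred in another family transcript. For Mug2 it was 25.6%, mostly with the pseudogene Mug-ps1, which held 23.2% of them. A read that lies wholly in such a stretch can be given to 1 gene only if its mate lies outside it, and how such pairs were counted is not given. The levels of Mug2, and to a lesser degree Mug1, are therefore less certain. The library kit does not mark strand, and Gm10069 overlaps Pzp by 19715 bases on the opposite strand, so their reads cannot be told apart there. The table gave Gm10069 only 19 to 101 reads per mouse.

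The upstream sequences of Mug1 and Mug2 are shown because the genes are near copies that differed in level. They are taken from RefSeq (GRCm38.p6) on the plus strand, within the 250 bases before each gene start and without any base of an annotated transcript. Mug1 covers chr6:121838291-121838495 and Mug2 covers chr6:122006548-122006728. The capitals mark matches of the letters GTTAAT of an HNF1 site, searched on both strands.
Mug1 upstream: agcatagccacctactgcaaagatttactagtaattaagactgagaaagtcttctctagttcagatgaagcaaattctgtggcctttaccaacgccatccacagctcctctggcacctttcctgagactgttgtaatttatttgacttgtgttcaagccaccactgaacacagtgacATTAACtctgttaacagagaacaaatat
Mug2 upstream: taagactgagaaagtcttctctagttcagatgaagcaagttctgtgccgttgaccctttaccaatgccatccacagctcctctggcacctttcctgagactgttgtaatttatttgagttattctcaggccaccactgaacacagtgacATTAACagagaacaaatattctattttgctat
Of 161 bases that aligned between the printed windows, 153 were identical. The letters GTTAAT stood once in each, and 2 times in the 250 bases before the start of Pzp. Of 32851 promoter windows of 250 bases, 6.43% held them. The letters TTCNNNGAA of a STAT site and TTNNGNAAT of a C/EBP site were searched on both strands. They were in none of the full 250 base windows of Pzp, Mug1 and Mug2, and were in 7.02% and 10.2% of all such windows. The windows used here held none for A2m, so A2m was not searched and cannot be compared with its relatives in this.

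Each library held between 24436513 and 44266819 reads on genes, and 13190 genes had enough reads to be tested. All 4 family genes were among them. Replicate 3 of CLP+DCA stood apart from its group. Over all tested genes it lay nearer to the CLP mice than to the other CLP+DCA mice, with a root mean square distance of 0.637 against 0.990 in log2 CPM, the log2 of the read counts scaled to a common library size. CLP+DCA replicates 1 and 4 lay nearest to the sham mice, and CLP replicates 1 and 3 lay nearest to the CLP+DCA mean, which includes its replicate 3. Fold changes, shares and list counts are therefore given with all 12 mice and also without this mouse. All comparisons share a spread estimate, and calls between CLP and sham mice also changed when this mouse was left out. The cause of that change was not tested.

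A2m was almost silent in sham liver and well detected in every septic liver. The 4 sham mice had 7, 10, 9 and 14 A2m reads. The 4 CLP mice had 11608, 43820, 7917 and 52233 reads. The 4 CLP+DCA mice had 580, 350, 111170 and 159 reads. Every mouse with CLP, treated or not, therefore had more A2m reads than any sham mouse.

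After scaling for library size, A2m stood at 0.26, 0.248, 0.285 and 0.383 CPM in sham replicates 1 to 4. In CLP replicates 1 to 4 it stood at 267, 2098, 191 and 2345 CPM. The CLP mice fell into a lower pair, replicates 1 and 3, and a higher pair, replicates 2 and 4. In CLP+DCA replicates 1 to 4 it stood at 18.5, 11.8, 3011 and 5.06 CPM. Replicate 3 of CLP+DCA had the highest A2m level of all 12 mice, and the other 3 lay between the sham and the CLP mice without overlapping either.

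**Figure D1:**
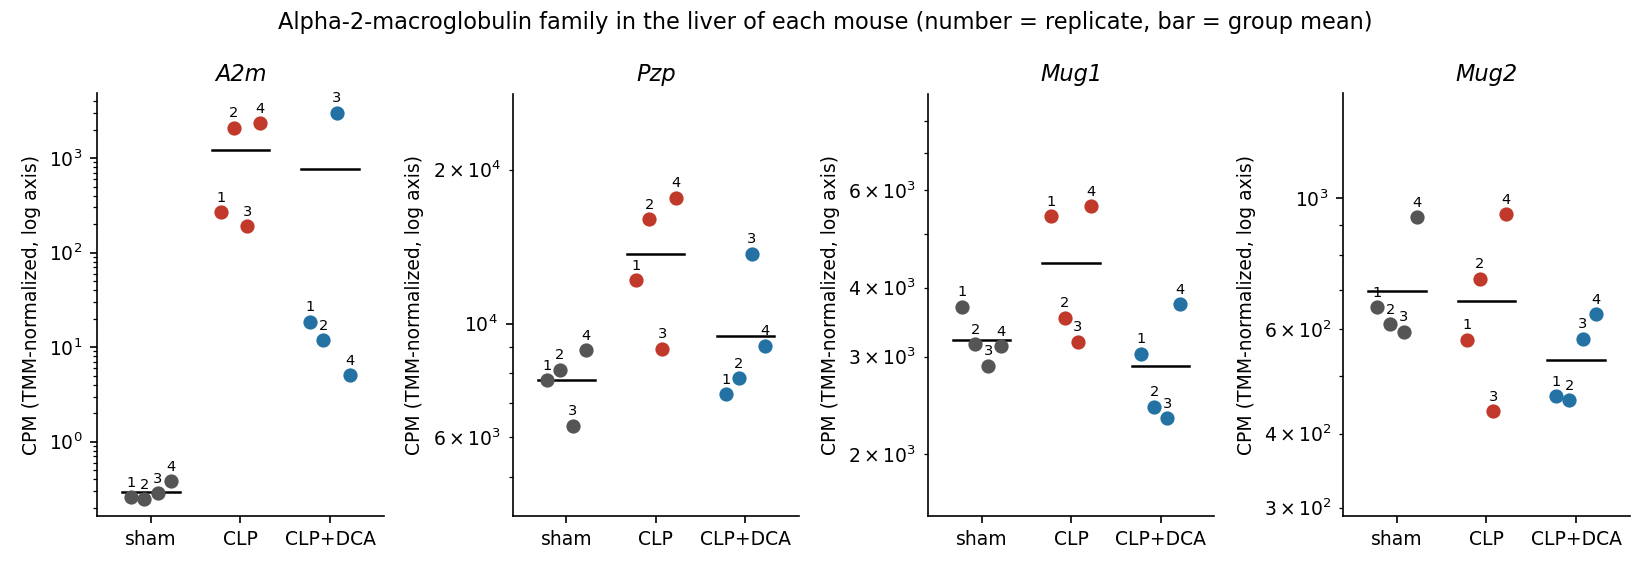
Levels of A2m, Pzp, Mug1 and Mug2 in each of the 12 livers, in CPM on a log axis that differs between panels; each point is 1 mouse with its replicate number and the bar is the group mean. A2m separates the 3 groups except for CLP+DCA replicate 3 at 3011 CPM, while the ranges of Mug1 and Mug2 overlap between groups.

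The mean A2m level was 0.294 ± 0.0613 CPM in sham, 1226 ± 1155 CPM in CLP and 761 ± 1499 CPM in CLP+DCA mice (SD, n = 4 each). The SD exceeded the mean in CLP+DCA, with replicate 3 far from the others. The fitted log2 fold change of CLP over sham was 12 (SE 2.56), a description since A2m was chosen on it. On the log2 scale the SD of A2m was 4.16 in CLP+DCA mice, and 1 other tested gene had a larger one in that group. In CLP mice it was 1.91, with 76 genes above it, and in sham mice 0.24, with 3970 genes above it.

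A2m was higher in CLP+DCA than in sham mice in 4 of 4 mice. A2m was chosen for its rise over these same sham mice, and it passed the filter on low counts only through the mice with CLP, so this comparison is given as a description and its p-values are no independent evidence. The log2 fold change was 11.32 (SE 2.51), and in the fit across all genes the edgeR quasi-likelihood test gave an adjusted p of 0.217. Over the 20 alternatives the adjusted p ran from 4.24e-10 with DESeq2, the 1 alternative that passed, to 0.481. Over all genes, 0.0379% passed in this comparison, and in 9.76% the groups did not overlap, 4.78% with CLP+DCA higher. The log2 fold change was 5.30 without CLP+DCA replicate 3, and the adjusted p was then 0.160 in the edgeR fit.

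Between CLP+DCA and CLP mice, A2m differed by a log2 fold change of -0.69 (SE 1.58), with an adjusted p of 0.909. This single value hides an unequal group, with 3 CLP+DCA mice below every CLP mouse and 1 above every CLP mouse. The difference of the mean log2 CPM, which gives replicate 3 less weight, was -4.05, and its exact permutation p, two-sided, was 0.171. Without replicate 3, the log2 fold change was -6.70 (SE 1.10) with an adjusted p of 0.0199 by the same edgeR test. In that fit 349 of 13288 genes fell and 267 rose past the threshold. Over the 20 alternatives for this comparison the adjusted p ran from 0.0156 to 0.991. A2m was chosen for its level in these CLP mice, and the mouse left out was singled out after its values were seen, so the value without it is a description and not an independent test. The other 3 CLP+DCA mice had a mean of 11.8 ± 6.73 CPM (SD, n = 3). The CLP mean was 104.0 times that mean, and the mean itself was 40.1 times the sham mean. Of all tested genes, 0.00758% passed the threshold in this comparison with all 12 mice.

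**Figure D2:**
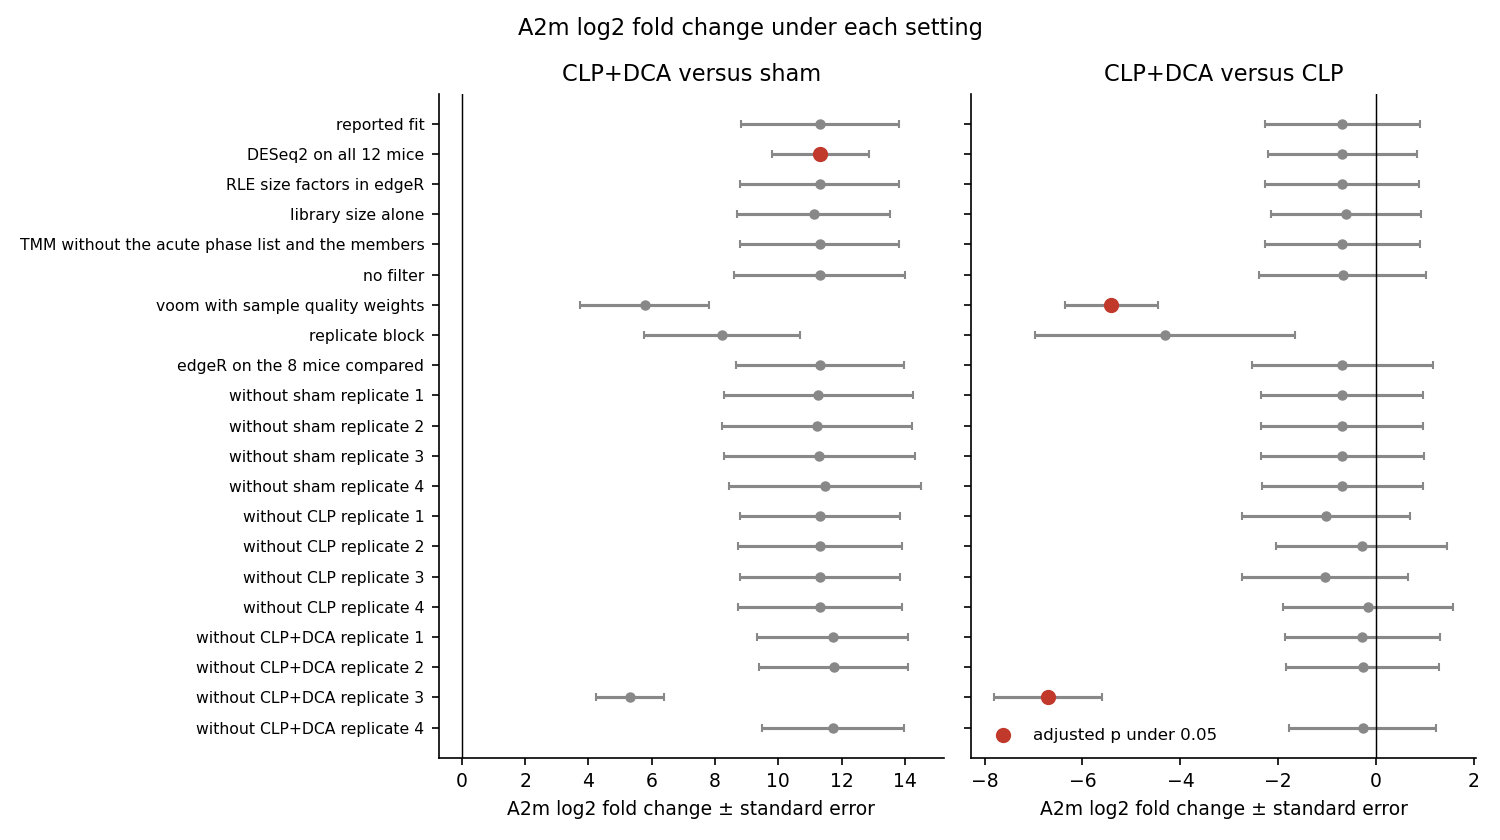
A2m log2 fold change of CLP+DCA over sham (left) and over CLP (right) under each setting tried; points are fitted values, bars are standard errors and red marks an adjusted p under 0.05. Leaving out CLP+DCA replicate 3 moves the comparison with CLP to -6.70 and the comparison with sham to 5.30, while leaving out any other mouse moves neither value as far.

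Some sets of cell type markers differed in the same mice. The summed level of 12 neutrophil markers was 6.46 to 9.30 CPM in sham and 32.2 to 46.2 CPM in CLP mice. In CLP+DCA replicates 1 to 4 it was 6.77, 14.4, 61.4 and 7.19 CPM, so replicate 3 was again the highest of all mice. Of these markers, 9 had reads in every sham mouse and Camp had none in any. Of the 10 that were tested, 9 had a log2 fold change of CLP over sham above 0 and 1 below. The summed level of 6 cholangiocyte markers was also highest in CLP+DCA replicate 3, at 213 CPM, against 34.4 to 96.3 CPM in sham and CLP mice. Nearly all of that sum was Spp1, at 139 CPM, and Sox9, at 71.0 CPM, while the defining markers Krt19 and Epcam reached at most 0.827 and 1.21 CPM in any CLP+DCA mouse, against 0.848 and 1.45 CPM in the highest sham mouse. The 8 hepatocyte markers had reads in every mouse. They summed to 62064 to 81423 CPM in sham, 28373 to 44535 CPM in CLP and 25695 to 57172 CPM in CLP+DCA mice. Replicate 3 of CLP+DCA was the lowest of all 12 mice. Most of each group mean was Alb, at 46672 CPM in sham, 21571 CPM in CLP and 26339 CPM in CLP+DCA mice. Hnf4a, of the same list, was highest of all 12 mice in that replicate 3, at 808 CPM, with at most 803 CPM in CLP mice. In CLP over sham, 7 of the 8 had a log2 fold change below 0 and 1 above. In the other marker sets CLP+DCA replicate 3 was not an extreme of the 12 mice. It stood at 236 CPM for Kupffer cells and macrophages, where its group ran from 225 to 420 CPM. For endothelium it stood at 136 CPM, where its group ran from 96.0 to 142 CPM. For stellate cells it was the highest of its group at 235 CPM, below 428 CPM in CLP replicate 3. For lymphocytes it was the lowest of its group at 0.650 CPM, above 0.449 CPM in CLP replicate 4. The part of these differences in the A2m values was not tested.

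Pzp, the main plasma macroglobulin of the mouse, was the most abundant member in every liver. It stood at 7743, 8128, 6315 and 8870.5 CPM in the sham mice and at 12168, 15980.3, 8925 and 17613 CPM in the CLP mice. The lowest CLP mouse, replicate 3, was just above the highest sham mouse. In the CLP+DCA mice Pzp stood at 7273, 7809, 13691 and 9057 CPM, so replicate 3 was within the CLP range and the other 3 reached little beyond the sham range. The log2 fold change of CLP over sham was 0.82 (SE 0.26), given as a description. A2m and Pzp were the 2 of 4 members whose CLP and sham values did not overlap, and the same held for 26.5% of all tested genes, 12.2% with CLP higher.

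For Pzp, CLP+DCA differed from sham by a log2 fold change of 0.28 (SE 0.25, adjusted p = 0.621) and from CLP by -0.53 (SE 0.26, adjusted p = 0.509). Neither passed the threshold. Without CLP+DCA replicate 3 they were 0.05 and -0.77, with adjusted p of 0.976 and 0.0642. Over all alternatives the adjusted p ran from 0.525 to 0.991 and from 0.0258 to 0.865. Only limma voom with sample quality weights, which weigh the mice unequally, passed the latter.

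Mug1, a murinoglobulin gene, stood at 3697, 3164, 2889.8 and 3132 CPM in sham mice. In CLP mice it stood at 5382, 3531, 3193 and 5605 CPM, with replicates 1 and 4 above every sham mouse and the other two within the sham range. In CLP+DCA mice it stood at 3040.4, 2438, 2323 and 3735 CPM. Replicate 3, the highest of all mice for A2m, was the lowest of all mice for Mug1. The log2 fold change of CLP over sham was 0.46 (SE 0.22), as a description. CLP+DCA differed from sham by -0.16 (SE 0.22, adjusted p = 0.750) and from CLP by -0.62 (SE 0.22, adjusted p = 0.403). The latter had an unadjusted p of 0.0163 in the edgeR test, and 10% of all tested genes had an unadjusted p under 0.05 in this comparison. Without CLP+DCA replicate 3 the log2 fold changes were -0.07 over sham and -0.53 over CLP, with adjusted p of 0.965 and 0.148. Over all alternatives the adjusted p ran from 0.456 to 0.965 and from 0.0393 to 0.732.

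Mug2 stood at 654, 613, 594 and 929 CPM in sham mice, at 577, 731, 436 and 938 CPM in CLP mice and at 463, 456, 579 and 636 CPM in CLP+DCA mice. The 3 ranges overlapped. The log2 fold change of CLP over sham was -0.06 (SE 0.23), as a description, and its sign was not stable: it was 0.11 without sham replicate 4, 0.10 without CLP replicate 3 and 0.0079 without CLP replicate 1. CLP+DCA differed from sham by -0.39 (SE 0.24, adjusted p = 0.481) and from CLP by -0.33 (SE 0.24, adjusted p = 0.672). Without CLP+DCA replicate 3 these were -0.43 and -0.37, with adjusted p of 0.650 and 0.346, and over all alternatives the adjusted p ran from 0.130 to 0.703 and from 0.134 to 0.956. These values carry the uncertainty of the sequence that Mug2 shares with Mug-ps1.

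No member passed the threshold in the edgeR fit of all 12 mice in either comparison with CLP+DCA. At an unadjusted p under 0.05 by edgeR, Mug1 was the 1 member in the comparison with CLP, against 10% of all genes. In the comparison with sham A2m was the 1 member, against 13.0% of all genes. A2m was chosen for its rise over those sham mice, so its p there is a description and no independent evidence. DESeq2 called A2m against sham, where 168 of 13481 genes rose and 79 fell, and no member against CLP. That call is a description for the same reason. Limma voom with sample quality weights, which weigh the mice unequally, called no member against sham. Against CLP it called A2m, Pzp and Mug1 lower, where 674 of 13190 genes fell and 613 rose. A2m was chosen for its level in these CLP mice, so its call there is a description too. Both comparisons share their CLP+DCA mice, so their values are not independent of each other.

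**Figure D3:**
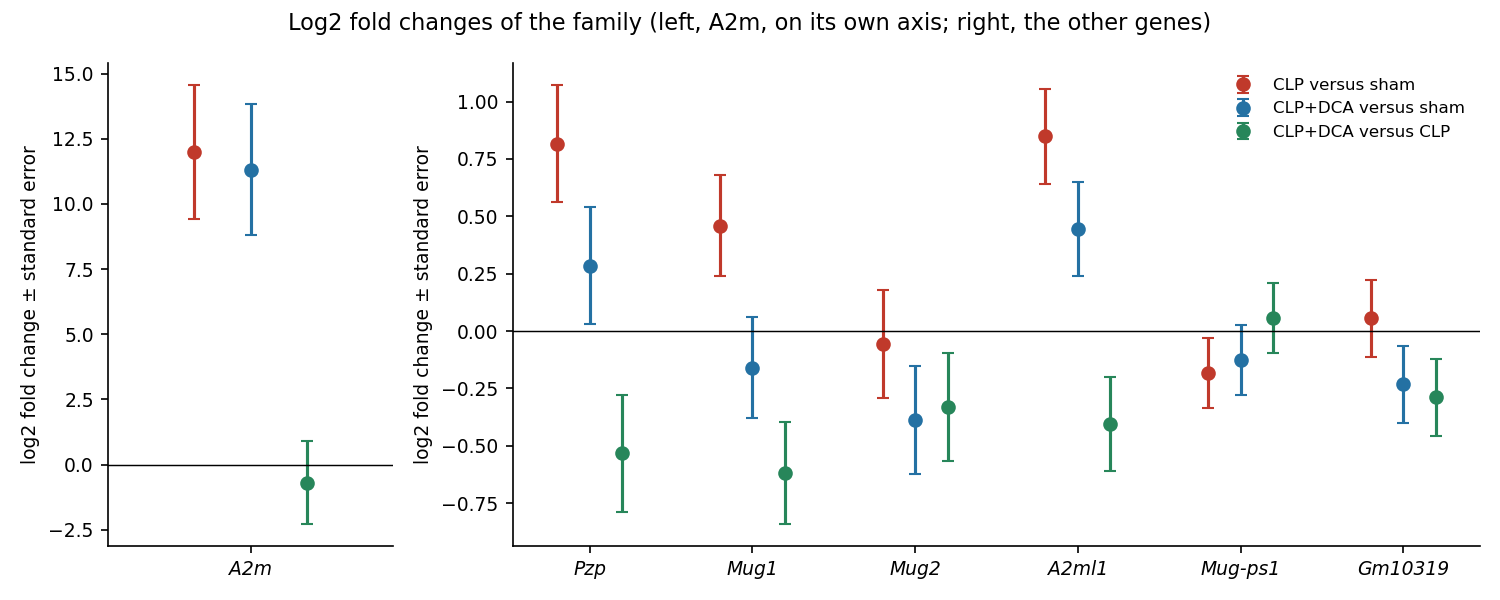
Fitted log2 fold changes of the family genes and of the relatives A2ml1, Mug-ps1 and Gm10319 in the 3 comparisons, with standard errors from 4 mice per group. A2m is drawn on its own axis because its values, 12 and 11.32 over sham, are far from those of the other genes, which lie between -0.62 and 0.85.

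Levels of the 4 genes can be set against each other only per length, here in CPM per kilobase of transcript. In sham mice the mean level was 1659 ± 229 for Pzp, 692 ± 73.1 for Mug1, 152 ± 34.1 for Mug2 and 0.0638 ± 0.0133 for A2m (SD, n = 4). The ranges of these 4 genes did not overlap in sham mice. In CLP mice the order was Pzp at 2921 ± 833, Mug1 at 951 ± 267, A2m at 266 ± 251 and Mug2 at 146 ± 47.0 CPM per kilobase. A2m and Mug2 could not be ordered there, since A2m ranged from 41.6 to 509 and Mug2 from 95.3 to 205. In CLP+DCA mice Pzp stood at 2020.45 ± 624, Mug1 at 619 ± 139, A2m at 165 ± 326 and Mug2 at 117 ± 19.4 CPM per kilobase. A2m was below Mug2 in 3 of those mice and, in replicate 3, was above the Mug1 level of the same mouse, with 654 against 499. In the other 3 it ranged from 1.10 to 4.02. Per length, A2m reached 22.4% of the Pzp level in that mouse and 2.18% to 13.5% in the CLP mice.

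The family took a sizeable part of the liver message. Together the 4 genes held 1.05% to 1.33% of all reads in sham mice, 1.33% to 2.30% in CLP mice and 1.10% to 1.80% in CLP+DCA mice. CLP+DCA differed from sham by 0.130 percentage points (exact permutation p = 0.571, two-sided) and from CLP by -0.472 percentage points (exact permutation p = 0.114, two-sided). The former turned to -0.0149 percentage points without CLP+DCA replicate 3.

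Within the family, Pzp held from 64.0% to 72.9% of the reads over all 12 mice. In proportion to their size, the shares of the other genes varied more. A2m held 0.00208% to 0.00296% of the family reads in sham mice and 1.45%, 9.39%, 1.5% and 8.85% in CLP mice. In CLP+DCA mice it held 0.172%, 0.110%, 15.4% and 0.0377%. The 95% Wilson interval of the share was 15.3% to 15.4% in CLP+DCA replicate 3 and 0.0322% to 0.0440% in replicate 4, so counting error is small beside the spread between mice. These intervals cover counting error only. Mug1 held 24.2% to 30.6% in sham mice and 11.9% in CLP+DCA replicate 3, its lowest share. The A2m share in CLP+DCA differed from sham by 3.92 percentage points, a description since the choice of A2m fixed the sham side near 0, and from CLP by -1.38 percentage points (exact permutation p = 0.743, two-sided). Leaving out CLP+DCA replicate 3, the A2m share differed from sham by 0.104 and from CLP by -5.19 percentage points.

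**Figure D4:**
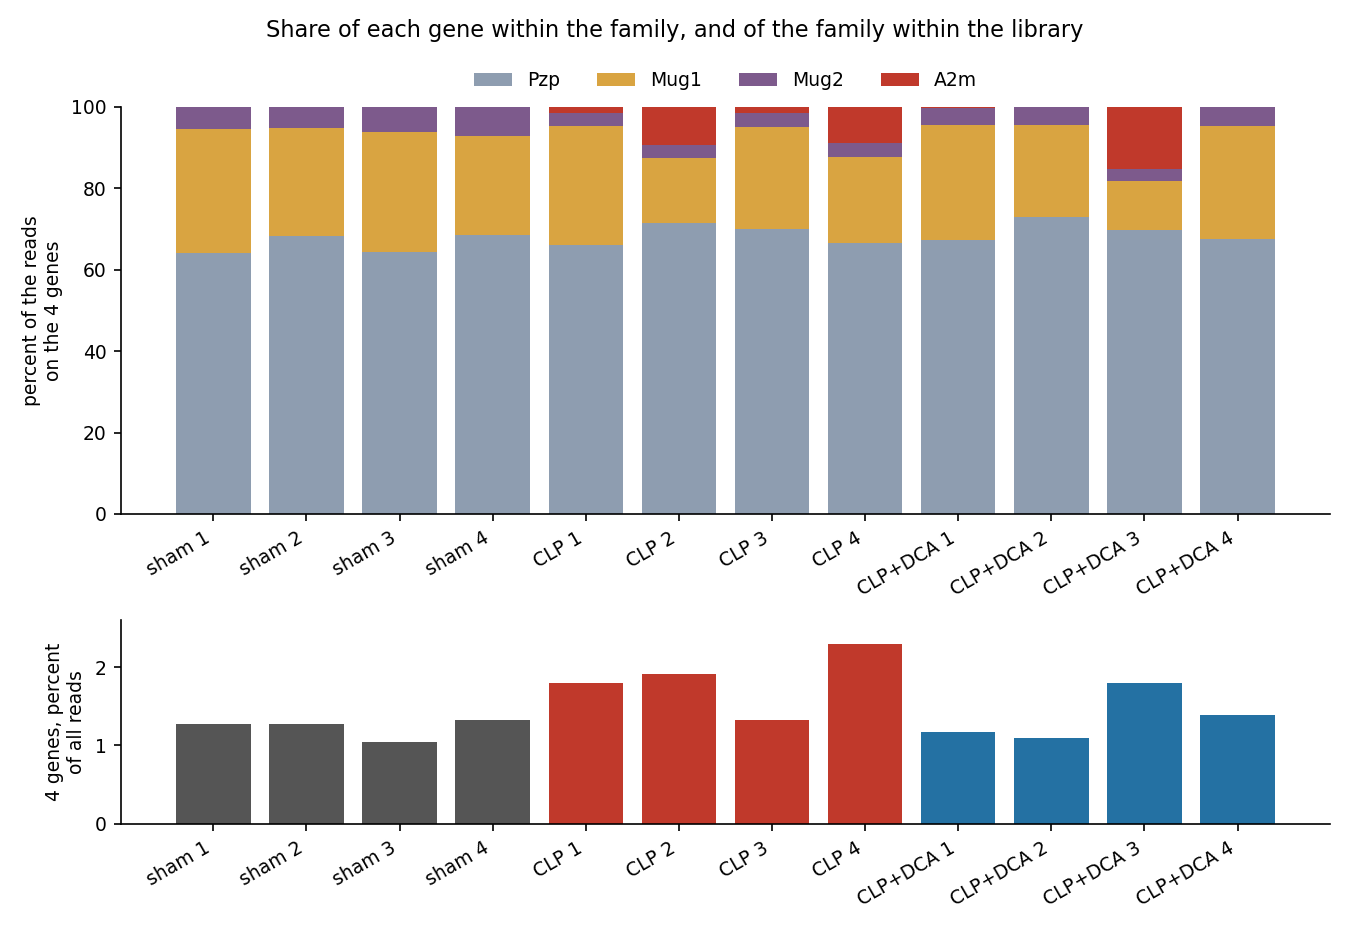
Share of each gene in the reads of the 4 family genes (top, percent) and share of the 4 genes in all reads (bottom, percent) in each of the 12 mice. A2m is too small to see in sham mice, holds 1.45% to 9.39% in CLP mice and reaches 15.4% in CLP+DCA replicate 3, while the Pzp share stays between 64.0% and 72.9%.

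The 4 genes did not share 1 pattern over the mice. Over 12 mice, Pearson's r of log2 CPM was 0.85 between A2m and Pzp, 0.25 between A2m and Mug1 and 0.00 between A2m and Mug2. It was 0.48 between Pzp and Mug1 and 0.47 between Mug1 and Mug2. With that mouse, CLP+DCA replicate 3, left out, r between A2m and Mug1 was 0.54 and between Pzp and Mug1 0.73. These values describe mice that fall into 3 groups and carry no test.

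The genes whose pattern over the 12 mice was most like that of A2m were Lcn2 (r = 0.99), Serpina3m, Chil1, Reg3b and Apcs (r = 0.98 each). Lcn2 encodes lipocalin 2, which binds bacterial iron carriers. Serpina3m encodes a serine protease inhibitor, Chil1 a chitinase-like protein, Reg3b a bactericidal lectin and Apcs serum amyloid P, an acute phase protein of the mouse. For Pzp they were Atp8b1, Gjc3, C4bp, Man1a2 and Ncstn (r from 0.96 to 0.97), and C4bp encodes a plasma inhibitor of complement. Mug1 was most like Nbeal2 and Mug2 most like Foxp1 (r = 0.88 for both). No gene is on more than 1 of these lists. Likeness over groups that differ from each other is a description.

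**Figure D5:**
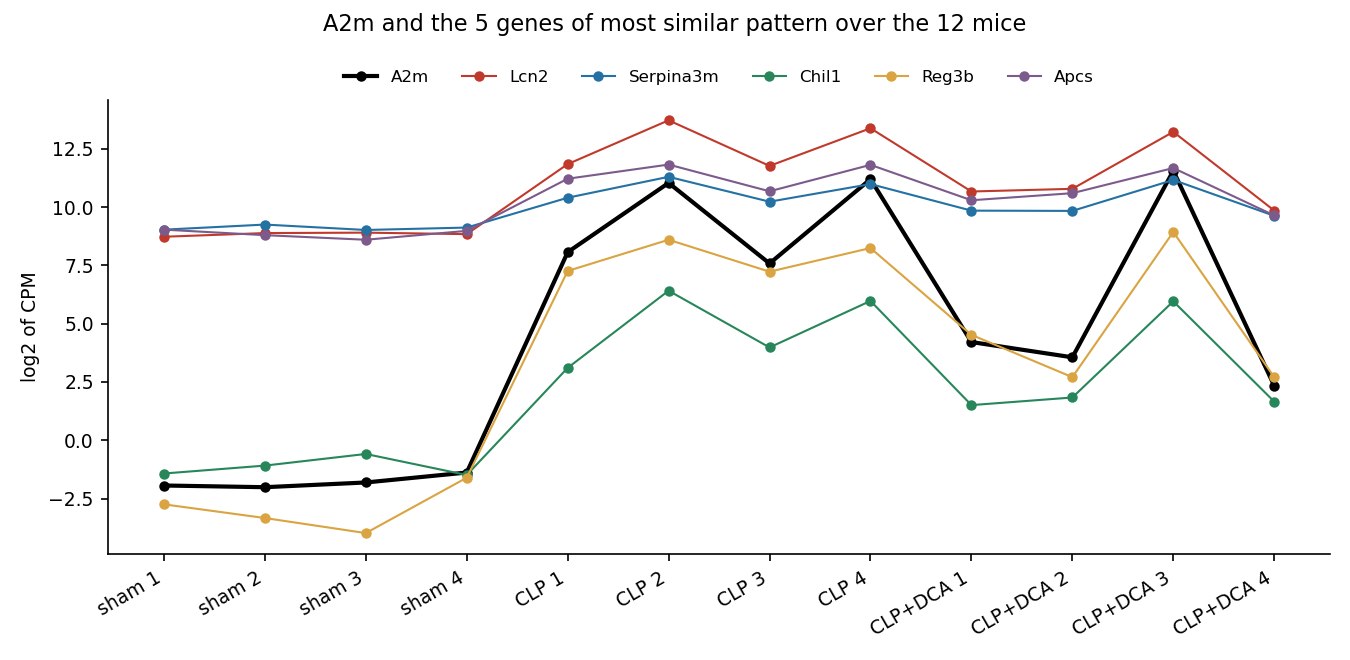
Log2 CPM of A2m and of the 5 genes with the most similar pattern in each of the 12 mice. All 6 lines are lowest in sham, higher in CLP, and high again in CLP+DCA replicate 3, and A2m spans the widest range.

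Relatives on the same chromosome were close to the members in place. A2ml1, an alpha-2-macroglobulin-like gene 13102 bases from Pzp, was at 28.2 ± 4.64 CPM in sham and 50.9 ± 16.0 CPM in CLP mice (SD, n = 4). Its log2 fold change of 0.85 (SE 0.21) had an adjusted p of 0.0511 and did not pass. Its value was 0.85 without CLP+DCA replicate 3, with an adjusted p of 0.0173, in a fit where 1627 of 13288 genes rose and 1530 fell. The pseudogene Mug-ps1 had log2 fold changes of -0.18 for CLP over sham (adjusted p = 0.431) and 0.06 for CLP+DCA over CLP (adjusted p = 0.921). Gm10319, between Mug2 and Mug-ps1, had 0.06 (adjusted p = 0.841) and -0.29 (adjusted p = 0.590). Fkbp4, Itfg2 and Nrip2, which lie within 100 kb of Pzp, and Gm10069 did not pass in any comparison either, with log2 fold changes of CLP over sham of -0.80 (adjusted p = 0.207), 0.16 (adjusted p = 0.365), 0.31 (adjusted p = 0.598) and 0.72 (adjusted p = 0.126). Klrb1a and Tex52, also near Pzp, had at most 1 read in a mouse. No gene of the table lay within 100 kb of A2m or Mug1.

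Of 29 tested plasma protease inhibitors outside the family, 5 rose in CLP over sham and none fell. Of all genes, 2.78% passed in either direction, 1.64% upward and 1.14% downward. The 5 were Itih3 (log2 fold change 1.03, adjusted p = 0.0344), whose product binds hyaluronan, the serpins Serpina3m (1.69, adjusted p = 0.0385), Serpina3n (2.09, adjusted p = 0.0415) and Serpina3k (0.97, adjusted p = 0.0463), and Slpi (2.94, adjusted p = 0.0390), an inhibitor of neutrophil elastase. The median log2 fold change of the list was 0.18, and 0.02 over all genes. None of the 29 passed in either comparison with CLP+DCA by edgeR. At an unadjusted p under 0.05, 10 were higher and 2 lower than sham, against 13.0% of all genes in either direction. In the comparison with CLP, 0 were higher and 1 lower, against 10% of all genes. DESeq2 called 5 over sham, all higher, where 168 of 13481 genes rose and 79 fell. It called 0 over CLP, where 73 of 16696 genes rose and 63 fell. Without CLP+DCA replicate 3, when 3157 of 13288 genes passed in CLP over sham and 616 in CLP+DCA over CLP, 11 of the 29 rose and 2 fell in CLP over sham, none passed in CLP+DCA over sham, and 7 fell in CLP+DCA over CLP.

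Of 7 tested genes of the LDL receptor family and its chaperones, none passed in any comparison by edgeR. At an unadjusted p under 0.05 were 2, 0 and 2 genes in CLP over sham, CLP+DCA over sham and CLP+DCA over CLP. Of all tested genes, 13.0% were under it in CLP+DCA over sham and 10% in CLP+DCA over CLP. Lrp1, the receptor of the complexes, had a log2 fold change of 0.30 in CLP over sham (SE 0.15, adjusted p = 0.210) and of -0.35 in CLP+DCA over CLP (SE 0.15, adjusted p = 0.488). Lrp1 reads ranged from 24699 to 64735 per mouse, so depth was not short for this gene. DESeq2 called 1 of the list in CLP over sham, where 1034 of 14517 genes rose and 860 fell, and none with CLP+DCA. The chaperone gene Hspa5 alone rose, in CLP over sham, when CLP+DCA replicate 3 was left out, where 1627 of 13288 genes rose.

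Over all genes, 1.64% passed upward and 1.14% downward in CLP over sham. Of 20 tested genes for IL-6 family signalling and liver transcription factors, 1 rose in that comparison and none fell. That gene was Cebpd, a transcription factor of the acute phase response, with a log2 fold change of 2.17 (SE 0.40, adjusted p = 0.0283). Socs3, a feedback inhibitor of the same pathway, had 1.57 (SE 0.38, adjusted p = 0.0522), and Lifr, a receptor subunit, had -1.69 (SE 0.41, adjusted p = 0.0508), and neither passed. Il6 itself had at most 3 reads in any mouse, so its level in liver was not measurable at this depth. Of 20 tested proteases that macroglobulins trap, 1 rose, Mmp9, a gelatinase of neutrophils (log2 fold change 2.38, adjusted p = 0.0461). Of 9 tested cytokines and growth factors that they carry, 1 rose, Il1b (1.36, adjusted p = 0.0463). These 3 lists are sensitive to CLP+DCA replicate 3. In CLP over sham without that mouse, 5 signalling genes rose and 3 fell, and 9 proteases rose and 2 fell. Of the cytokines and growth factors, 2 rose and 2 fell. Over all 13288 genes then tested, 1627 rose and 1530 fell. In CLP+DCA over CLP without that mouse, 2 signalling genes rose and 2 fell, and 5 proteases and 2 cytokines fell. Over all 13288 genes, 267 rose and 349 fell in that comparison.

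Of 25 tested acute phase plasma proteins, 13 rose in CLP over sham and none fell, with a median log2 fold change of 1.38. Of all genes, 1.64% passed upward and 1.14% downward in that comparison. In CLP+DCA over sham, 1 of the 25 rose, the serum amyloid gene Saa3, where 0.0303% of all genes passed upward. In CLP+DCA over CLP none passed by edgeR or DESeq2. At an unadjusted p under 0.05 by edgeR, 3 were lower there, against 10% of all genes in either direction. These counts without CLP+DCA replicate 3 were 21 rising in CLP over sham, 1 rising in CLP+DCA over sham and 7 falling in CLP+DCA over CLP. Of 13288 genes, 1627 rose, 9 rose and 349 fell in the same comparisons without that mouse. A further list grouped thioester proteins and relatives by symbol, among them the pseudogene Mug-ps1. Of its 6 tested genes, C3, the central complement component, rose in CLP over sham (log2 fold change 0.98, adjusted p = 0.0463). The lists overlap: C3 is also 1 of the 13 acute phase genes, as are Itih3 and Serpina3n of the protease inhibitors. Among 16 other secreted liver proteins, listed as constitutive, 1 passed, albumin (Alb), with a log2 fold change of -1.11 (SE 0.25, adjusted p = 0.0463). Serpina6 had a lower value, -3.82 (SE 1.24, adjusted p = 0.0861), and did not pass. Of the 16, 7 had a log2 fold change above 0 and 9 below. When CLP+DCA replicate 3 was left out, C3 and A2ml1 rose in the former list, and 2 rose and 5 fell in the latter. Of 13288 genes, 1627 rose and 1530 fell in that fit of CLP over sham.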

How the data were processed

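Per the labels and the study's methods, poly(A) RNA was sequenced as paired 100 base reads, aligned to mm10 with STAR 2.5 and counted per gene with featureCounts (Subread 1.5.0-p1). The authors deposited 1 table of raw read counts. The annotation, strand setting and treatment of reads with several matches are not given in the sources used here. The 4 genes and all gene lists were chosen with earlier results of these data known.

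All 12 mice were fitted together with edgeR 4.0.16 (R 4.3.3): filterByExpr with a minimum count of 10, TMM scaling, robust quasi-likelihood test, Benjamini-Hochberg adjustment over 13190 genes and a threshold of 0.05. CPM are TMM scaled, and log2 CPM use a prior count of 2 in correlations and distances. Shares were compared by exact permutation tests over mice, two-sided. The fit was tested on simulated counts. Totals ran from 24436513 to 44266819 reads per mouse, and the replicates are separate mice. Same-numbered mice are different animals, and their deviations correlated between -0.46 and 0.55, so numbers were not used as pairs. Alternatives were DESeq2 1.42.0, limma 3.58.1 (voom with sample quality weights, called voom below), other scalings, no filter and other thresholds. Further alternatives were only the 8 mice compared, a replicate block and leaving out each mouse. The sample quality weights let the mice count unequally. List counts with DESeq2 and without CLP+DCA replicate 3, and exact permutation of log2 CPM, were added after the data were seen. Named genes were to be the 4 members, up to 5 genes of lowest p per list and comparison, the 5 most like each member by Pearson's r, genes within 100 kb of a member, and proteins with the thioester motif. The last search was not run. Sequences and lengths come from the GRCm38 genome with GENCODE transcripts and from RefSeq.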

Additional observations from a re-analysis of the deposited data

Results flagged for a closer look

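A2m in CLP+DCA replicate 3 was at 3011 CPM, against 5.06 to 18.5 CPM in the other 3 CLP+DCA mice. The gap to the nearest of them was 0.996 of the whole range of the group, above Dixon's 95% critical value for 4 samples. The share of the family reads on A2m in the same mouse was 15.4%, with a gap of 0.991 of the range. Of 30 groups of 4 mice examined, 2 stood out in this way, and chance gives about 1 in 20. Both rest on the same reads of 1 mouse. That mouse also had the highest summed neutrophil markers, the lowest summed hepatocyte markers, at 25695 CPM, and the highest summed cholangiocyte markers of the 12 mice. The last sum was nearly all Spp1 and Sox9, with Krt19 and Epcam no higher than in the highest sham mouse. The hepatocyte sum was mostly Alb, and Hnf4a of that list was at its highest in the same mouse. In the other marker sets this mouse was not an extreme of the 12 mice. The part of these values in the A2m level was not tested.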

How the results depend on the processing

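Genes past the threshold numbered 367, 5 and 1 in CLP over sham, CLP+DCA over sham and CLP+DCA over CLP. In that order they were 1894, 247 and 136 with DESeq2, 3417, 473 and 1287 with voom, and 2387, 0 and 0 with the 8 mice compared. At an FDR of 0.01 they were 10, 1 and 0. With library size alone the first 2 were 209 and 3, and without a filter the first was 122. At an FDR of 0.1 the first was 2022 and the last 6. With the replicate block they were 46, 0 and 4, although the numbers do not pair the mice. Leaving out 1 mouse gave 10 (without sham replicate 3) to 3157 (without CLP+DCA replicate 3), 1 to 11, and 0 to 616. The 616 were without CLP+DCA replicate 3 as well, and 11 came without CLP+DCA replicate 3 and also without its replicate 4. The cause was not tested. For A2m over sham in CLP+DCA, the log2 fold change was 11.33 with DESeq2 (adjusted p = 4.24e-10) and 6.93 as a difference of mean log2 CPM (added after the data were seen), 5.77 with voom and 8.21 with the replicate block, and leaving out a mouse gave 5.30 to 11.75. These values share the sham mice on which A2m was chosen. The adjusted p ranged up to 0.481 over 20 alternatives. In CLP+DCA over CLP, voom passed A2m at -5.41, Pzp at -0.82 and Mug1 at -0.67 (adjusted p = 0.0156, 0.0258 and 0.0393). A2m ranged from -6.70 to -0.16 when a mouse was left out, with adjusted p from 0.0199 to 0.991, and was -4.31 with the replicate block (adjusted p = 0.700). Pzp in CLP+DCA over sham turned to -0.0036 with voom. The A2m share in CLP+DCA over sham was 3.92 percentage points with the replicate block and also without any 1 sham mouse, and leaving out any mouse gave 0.104 to 5.21. Its exact p is not independent of the choice of A2m and rises to 0.457 in groups of 4 and 3, because the 1 high mouse weighs more when drawn into the smaller group. The family share of all reads in CLP+DCA over sham ran from -0.0149 to 0.218 percentage points. No other change of side or direction arose for the members in the comparisons with CLP+DCA. Counts of 7 to 14 reads limit the sham A2m level.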
